A study of Mus musculus with 12 samples.

Results

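Genes of mitosis and of the G2 to M transition were followed across 12 libraries of mouse mesenchymal stem cells. The 39 genes were taken by name from a fixed list of mitotic kinases, cyclins, kinesins, checkpoint and cytokinesis genes. The rule itself used no measured value, but the list was chosen with earlier results of these data known. Each gene is a row of the deposited table of 21881 genes. All 39 passed the filter on low values, which asked for 1 FPKM or more in 3 or more libraries and which 11801 genes passed. FPKM counts sequenced fragments per kilobase of a transcript, relative to all fragments mapped in that library.

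Messenger RNA was sequenced from immortalized lines of C57BL/6 mesenchymal stem cells, fibroblast-like cells of adult bone marrow, each line grown from a single cell. KO_let-7g, KO_siNr6a1 and KO_siCtrl cells all carried the Dicer -/- genotype and received a synthetic let-7g duplex, an siRNA against Nr6a1 or a control siRNA that targets no gene. WT_siCtrl cells carried the floxed but intact genotype, Dicer f/f, and received the same control siRNA. Each RNA was given at 20 nM and cells were collected after 48 h, with 3 libraries in each of the 4 groups, numbered 0, 1 and 2. The sources used here do not give the number of lines behind each genotype, so genotype and line cannot be told apart, and immortalized clones need not divide as primary cells do. Nothing in the labels says that replicate libraries are separate cultures, and the p-values below rest on a spread that may be technical.

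Dicer cuts microRNA precursors into mature microRNAs, and let-7 is a microRNA family that accumulates as tissues mature and lowers the messages of growth genes. Nr6a1 encodes an orphan nuclear receptor of embryonic cells and is a let-7 target. Messages of mitotic genes are low in G1, rise in S phase and peak in G2 and mitosis, and in a population of dividing cells their level tracks how many cells are in those phases. Their promoters are held silent in resting cells by the DREAM complex and switched on later in the cycle by the MuvB core with B-Myb and then FOXM1. The DNA words known for this control are the cell cycle genes homology region (CHR), bound by MuvB, and the CCAAT box, bound by the factor NF-Y.

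The let-7g strand and the few words in these genes that could pair with its seed are shown first, since one of the treatments was that duplex. The mature mouse let-7g-5p sequence in RefSeq lies on the plus strand at chr9:106178846-106178867 of build GRCm38.p6, and its capitals mark the seed, bases 2 to 8.
let-7g-5p: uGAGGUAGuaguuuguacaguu
In the longest annotated 3′ untranslated region of each gene (GENCODE M21, build GRCm38), 0 of the 39 held CTACCTCA, the full match to the seed with the adenosine that follows, against 3.63% of 10220 tested genes with such a region. The shorter match CTACCTC stood in 3 of the 39 (7.69%), against 10.4% of those genes. These 3 sites lie on chromosomes 19, 11 and 15, at bases 358, 2666 and 35 of the untranslated region, and the capitals mark the match.
Kif11: gccaaggctgtttccCTACCTCtaaccag
Birc5: tttgctttaaagtggCTACCTCtctttgg
Espl1: gtagaagctgtgtgaCTACCTCcaaactt
Of these 3 genes, Espl1 was lower in KO_let-7g than in KO_siCtrl and the others were not called, and Espl1 was also lower in KO_siNr6a1. Of the 36 genes without CTACCTC, 19 were higher and 3 were lower in KO_let-7g than in KO_siCtrl. A further word, AGCCTT, chosen because an earlier look at these data had singled it out, stood in 11 of the 39 (28.2%), against 43.2% of tested genes.

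Promoters of the 39 genes shared words that the choice of genes did not use. RefSeq promoters, 250 bases before to 50 after the start of a gene, were at hand for 32 of the 39 and for 8233 tested genes. The CHR words TTTGAA or TTCGAA were searched on both strands, and TTCGAA, which reads the same on each strand, was counted on 1 of them. A CHR word stood in 25 of the 32 promoters (78.1%), against 13.5% of the promoters of tested genes and 19.4% of all 27025 promoters. CCAAT on either strand stood in 78.1% of the 32, against 39.7% of the promoters of tested genes, and both kinds of word stood together in 68.8%, against 5.87%. From position -50 to 44 relative to the start, a CHR word began in 71.9% of the 32 promoters, against 3.45% of the promoters of tested genes. The first 30 bases after the start were found in a GENCODE transcript of the gene for 20 of the 32. Distances from the start are less sure for the others.

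The 6 promoters printed here were chosen to set genes that moved in different ways beside each other, each as the 120 bases before the start, with CHR words and CCAAT boxes in capitals on the strand of the gene. TTCAAA and ATTGG are these words read on the other strand. All lie in GRCm38.p6, at chr4:118437344-118437463 on the minus strand for Cdc20, chr2:164769809-164769928 on the plus strand for Ube2c and chr1:169531465-169531584 on the minus strand for Nuf2. Those of Cdk1 and Top2a lie on the minus strand at chr10:69352913-69353032 and chr11:99024190-99024309, and that of Espl1 on the plus strand at chr15:102296173-102296292.
Cdc20: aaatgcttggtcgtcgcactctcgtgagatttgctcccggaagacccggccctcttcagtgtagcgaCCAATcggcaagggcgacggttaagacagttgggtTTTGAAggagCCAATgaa
Ube2c: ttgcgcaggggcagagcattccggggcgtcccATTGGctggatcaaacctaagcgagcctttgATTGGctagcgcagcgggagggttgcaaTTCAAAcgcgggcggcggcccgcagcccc
Nuf2: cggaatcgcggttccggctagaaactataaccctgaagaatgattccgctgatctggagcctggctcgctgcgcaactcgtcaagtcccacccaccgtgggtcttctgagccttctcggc
Cdk1: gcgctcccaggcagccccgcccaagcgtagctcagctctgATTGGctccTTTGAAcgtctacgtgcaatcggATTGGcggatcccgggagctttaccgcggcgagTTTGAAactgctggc
Top2a: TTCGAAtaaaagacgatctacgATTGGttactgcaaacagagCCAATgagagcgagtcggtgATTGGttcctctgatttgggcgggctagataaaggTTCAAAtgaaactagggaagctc
Espl1: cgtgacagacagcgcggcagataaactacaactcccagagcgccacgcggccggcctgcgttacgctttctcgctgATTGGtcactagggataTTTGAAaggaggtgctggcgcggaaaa
Cdc20, Ube2c and Nuf2 were higher in KO_let-7g than in KO_siCtrl, Cdk1 and Top2a were not called there, and Espl1 was lower. The CHR word began at position -18 in Cdc20, -29 in Ube2c and -27 in Espl1, and Nuf2 held neither word in this window. The number and place of CCAAT boxes differed between the promoters shown. Whether these words bear on the direction of change was not tested.

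**Figure D1:**
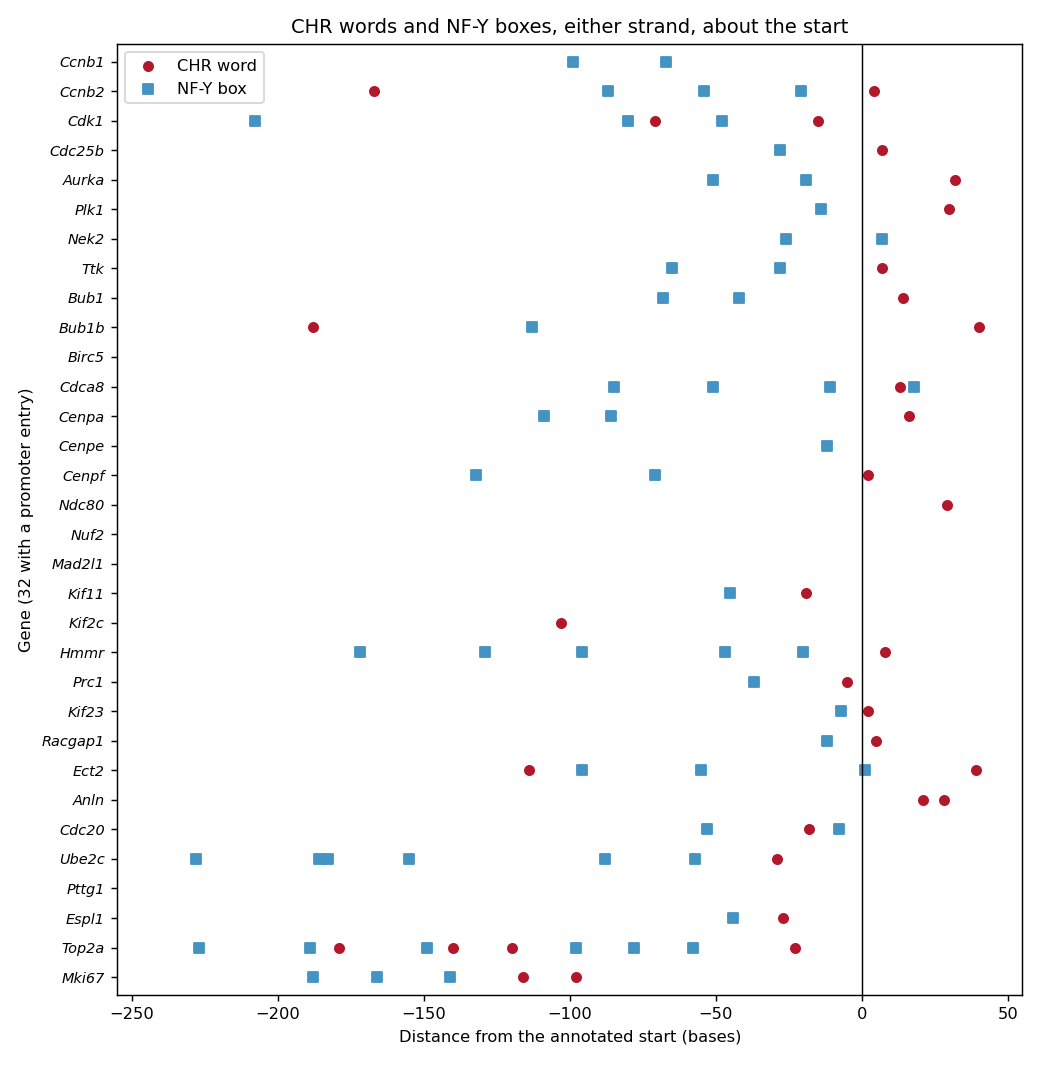
Position of each CHR word (red) and CCAAT box (blue, labelled NF-Y box) in the 32 promoters at hand, with the distance from the annotated start in bases on the horizontal axis and 1 gene per row. CHR words gather close to the annotated start, before or after it: 23 of the 32 genes have one that begins from -50 to 44.

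Libraries of KO_let-7g had an estimated relative depth of 1.34 to 1.82 and those of KO_siNr6a1 1.13 to 1.57. Those of KO_siCtrl gave 1 to 1.31 and those of WT_siCtrl 1.11 to 1.29, with the shallowest library set to 1. Total reads are not known, and each estimate rests on a ratio shared by 103 to 255 genes. The estimates did not always follow detection. KO_siCtrl replicate 1, at 1.31, had 15469 genes above 0 FPKM, and KO_siCtrl replicate 0, at 1, had 15799. Nr6a1, the gene targeted by the siRNA, averaged 4.22 ± 1.04 FPKM in KO_let-7g, 3.68 ± 0.539 in KO_siNr6a1, 11.7 ± 1.32 in KO_siCtrl and 1.12 ± 0.158 in WT_siCtrl (SD, n = 3 each). Dicer1 averaged 2.7, 3.15, 3.86 and 6.58 FPKM in the same order of groups, and the sources used here do not say which exons the deletion removes. Of 11 mesenchymal markers found, 9 reached an FPKM of 1 in some library, while Thy1 stayed at or under 0.00542 and Lepr at or under 0.787. The summed FPKM of 7 blood markers was 4.34 to 6.88 in KO_let-7g, 1.61 to 1.77 in KO_siNr6a1, 1.32 to 2.33 in KO_siCtrl and 1.13 to 1.8 in WT_siCtrl. Cd68 carried that sum, with the leukocyte markers Ptprc and Itgam at or under 0.0177. Endothelial markers summed to at most 0.278 FPKM and epithelial ones to at most 1.74, mostly from Krt8. The part of depth and of these markers in the results was not tested.

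In Dicer-null cells, more of the mitotic messages were called higher than lower after let-7g, and more were called lower than higher after Nr6a1 knockdown. The summed FPKM of the 39 genes was 3735 to 3970 in KO_let-7g libraries, 2673 to 2855 in KO_siNr6a1, 3080 to 3272 in KO_siCtrl and 2905 to 3154 in WT_siCtrl. KO_let-7g did not overlap any other group on this sum, and neither did KO_siNr6a1. By group mean, 24 of the 39 genes were highest in KO_let-7g and 22 were lowest in KO_siNr6a1, while 0 were highest in KO_siNr6a1. This order was not counted over all genes tested. Those genes leaned the same way, with 27.6% called higher and 13.3% lower in KO_let-7g against KO_siNr6a1. Mean levels over all libraries ran from 15.1 to 223 FPKM with a median of 71.8, against a median of 17 for all genes tested. In bulk RNA a larger share of cells in G2 and mitosis and more RNA per such cell cannot be told apart.

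**Figure D2:**
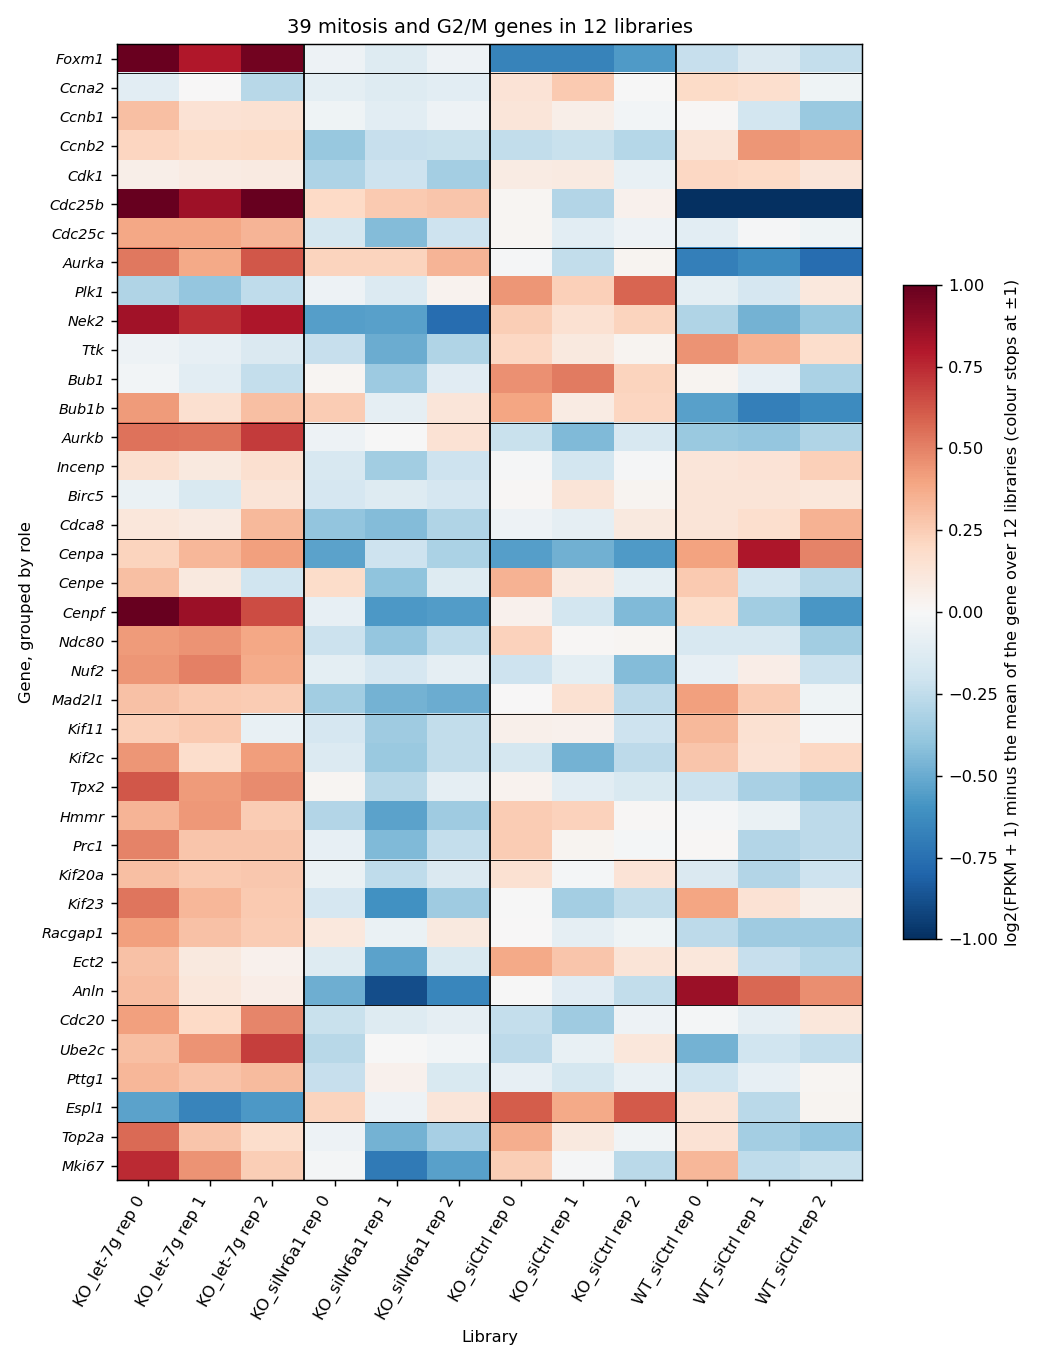
Level of each of the 39 genes (rows, grouped by role) in each of the 12 libraries (columns, grouped by treatment), as log2(FPKM + 1) minus the gene's mean over the 12 libraries. The KO_let-7g columns are red for most genes and the KO_siNr6a1 columns blue, with Plk1, Bub1 and Espl1 highest in KO_siCtrl.

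Differences were tested with limma on log2(FPKM + 1) over all 12 libraries, and a gene was called at a Benjamini-Hochberg adjusted p under 0.05 over the 11801 genes tested. In KO_let-7g against KO_siCtrl, 19 of the 39 genes were called higher (48.7%) and 4 lower (10.3%), where 27.5% of all genes tested were called higher and 18.2% lower. Their median log2 fold change was 0.3, beside 0.08 for all genes. In KO_siNr6a1 against KO_siCtrl, 4 were called higher (10.3%) and 13 lower (33.3%), where 13.2% of all genes were called higher and 16.3% lower, and the medians were -0.22 and -0.06. The count of 4 higher was 1 without KO_siCtrl replicate 1 or without KO_siNr6a1 replicate 2, and 2 without KO_siNr6a1 replicate 1.

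Set directly against each other, KO_let-7g and KO_siNr6a1 differed in 32 of the 39 genes. Of these, 31 were higher in KO_let-7g (79.5%) and 1, Espl1, was lower (2.56%), where 27.6% of all genes tested were called higher and 13.3% lower, and the medians were 0.55 and 0.12. With libraries scaled by the median of ratios, 25 were higher and 2 lower. That scaling moved the median of all genes by -0.12 here and by -0.13 in KO_let-7g against WT_siCtrl. The balance of calls over all genes moved with it: of all genes called, 67.6% were higher in KO_let-7g than in KO_siNr6a1, 60.2% higher than in KO_siCtrl and 60.7% higher than in WT_siCtrl, and these shares were 48.5%, 50.4% and 47.9% under the median of ratios.

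Between the genotypes the class had no common direction. In KO_siCtrl against WT_siCtrl, 12 of the 39 genes were called higher (30.8%) and 7 lower (17.9%), where 29.1% of all genes tested were called higher and 25.2% lower, so the share called higher was close to that of all genes. The median of the 39 was 0.06, beside 0.04 for all genes, and under upper quartile scaling it was -0.01 with 10 genes higher and 11 lower. In KO_let-7g against WT_siCtrl, 20 were higher (51.3%) and 4 lower (10.3%), where the shares of all genes tested were 35.3% and 22.8%. In KO_siNr6a1 against WT_siCtrl, 5 were higher (12.8%) and 15 lower (38.5%), where those shares were 27% and 27.4%. These groups differ in both genotype and the RNA given. KO_siCtrl and WT_siCtrl each serve as control in several of these comparisons, so the counts are not independent of each other.

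**Figure D3:**
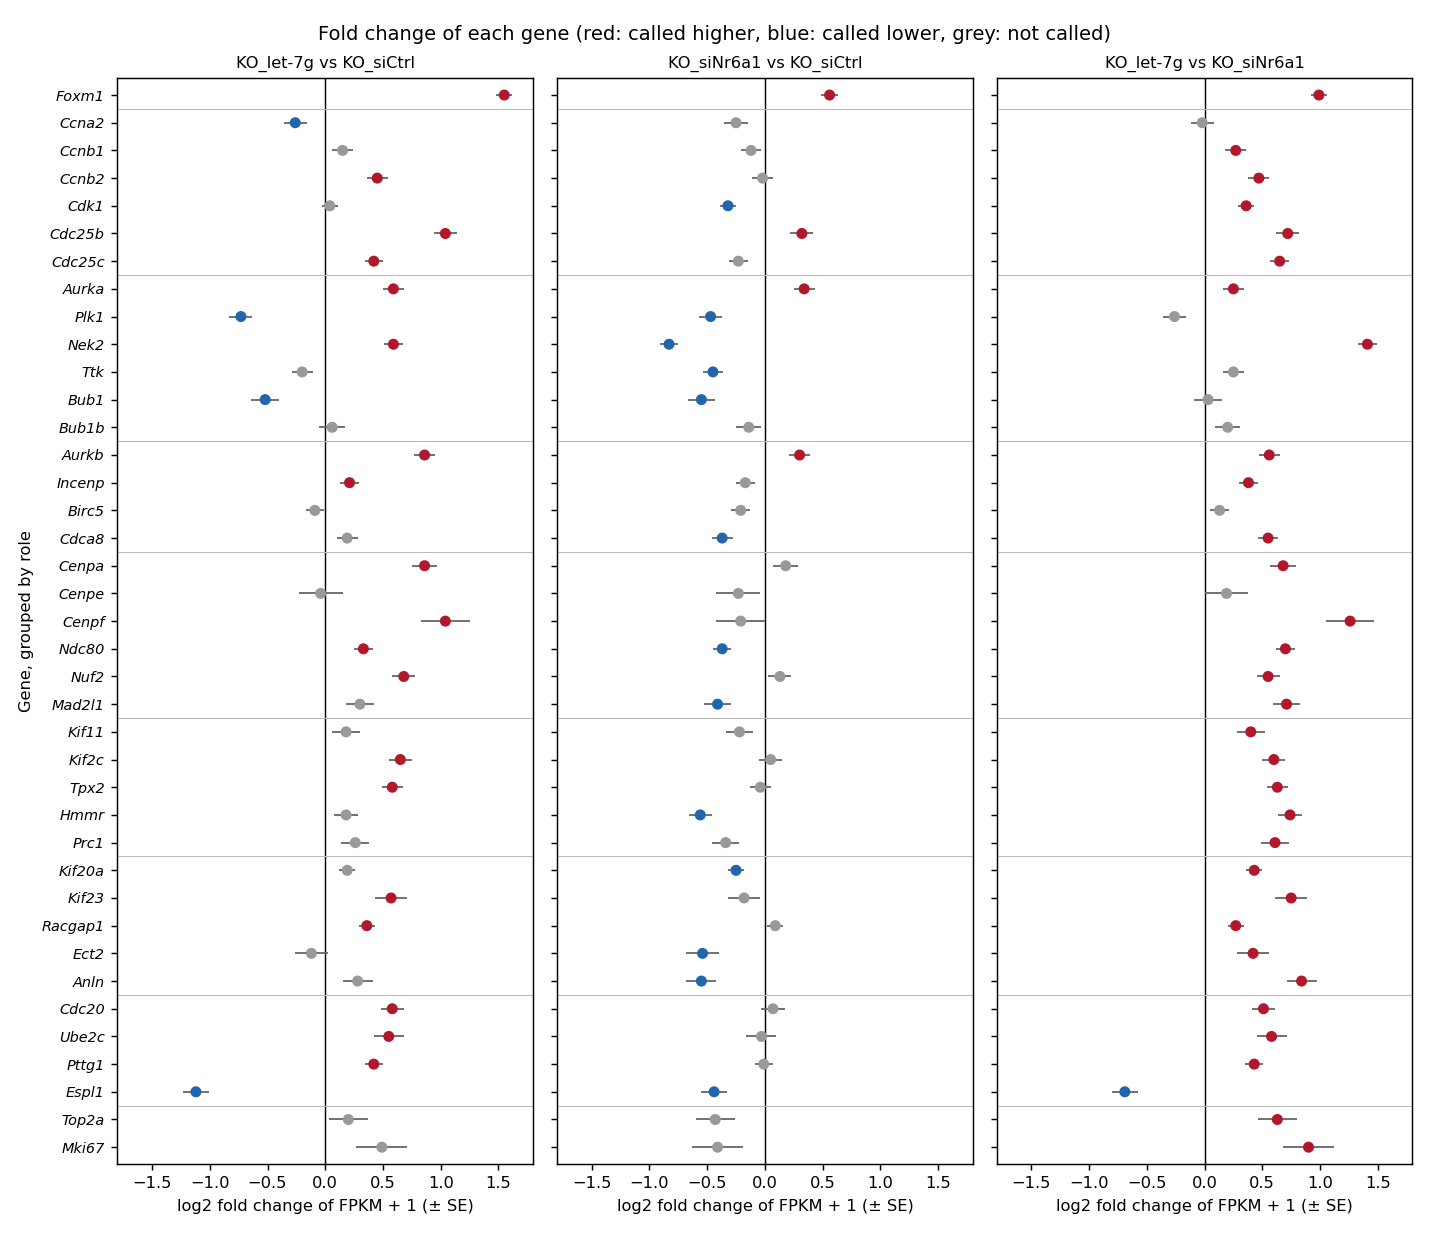
Log2 fold change of FPKM + 1 with its SE for each of the 39 genes, grouped by role, in KO_let-7g against KO_siCtrl (left), KO_siNr6a1 against KO_siCtrl (middle) and KO_let-7g against KO_siNr6a1 (right). Red genes were called higher, blue lower and grey not called: 19 and 4 are red and blue on the left, 4 and 13 in the middle, and 31 and 1 on the right.

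Foxm1, the transcription factor that drives G2 and M promoters, had the largest fold change of the 39 genes in KO_let-7g against KO_siCtrl. It had 81.3, 71.3 and 80.2 FPKM in KO_let-7g, 39.1, 37.0 and 39.2 FPKM in KO_siNr6a1, 25.1, 25.1 and 27.1 FPKM in KO_siCtrl, and 34.5, 36.5 and 34.2 FPKM in WT_siCtrl. No group overlapped another, and KO_siCtrl was the lowest. Against KO_siCtrl, the log2 fold change was 1.55 ± 0.07 (SE; limma adjusted p = 3.67e-07) with let-7g and 0.56 ± 0.07 with the Nr6a1 siRNA (0.00025). Against WT_siCtrl, KO_siCtrl fell by 0.43 (adjusted p = 0.000369), KO_let-7g was higher by 1.12 (3.19e-07), and KO_siNr6a1 gave 0.13 ± 0.07, which did not pass the test (0.148). So Foxm1 was higher after Nr6a1 knockdown than in KO_siCtrl, while 13 of the other mitotic genes were lower there.

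Among the cyclins, Cdk1 and its activating phosphatases, 3 of 6 were higher and 1 was lower in KO_let-7g than in KO_siCtrl, and 1 was higher and 1 lower in KO_siNr6a1. Cdc25b, a phosphatase that removes the inhibitory phosphates from Cdk1, differed between all 4 groups. It had 132, 118 and 135 FPKM in KO_let-7g, 75.2, 78.2 and 79.1 FPKM in KO_siNr6a1, 66, 53.1 and 67.1 FPKM in KO_siCtrl, and 27.9, 28.2 and 31.7 FPKM in WT_siCtrl. No group overlapped another. The log2 fold change was 1.04 ± 0.1 in KO_let-7g against KO_siCtrl (limma adjusted p = 1.38e-05) and 1.05 ± 0.1 in KO_siCtrl against WT_siCtrl (5.11e-06), so let-7g took it further from WT_siCtrl, by 2.09 in all (3.61e-08). Its rise of 0.32 in KO_siNr6a1 (adjusted p = 0.0274) was lost without KO_siCtrl replicate 1 and without any 1 of the KO_siNr6a1 libraries, at an adjusted p of up to 0.0925.

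Ccnb2, a B-type cyclin and partner of Cdk1, had 92.1, 90 and 90.5 FPKM in KO_let-7g, 60.7, 67.4 and 67.8 FPKM in KO_siNr6a1, 66.4, 67.8 and 64.6 FPKM in KO_siCtrl, and 86.7, 108 and 106 FPKM in WT_siCtrl. KO_let-7g overlapped WT_siCtrl, and KO_siNr6a1 overlapped KO_siCtrl. The log2 fold change was 0.45 ± 0.09 in KO_let-7g against KO_siCtrl (limma adjusted p = 0.00144) and -0.58 ± 0.09 in KO_siCtrl against WT_siCtrl (0.000171). Cdk1, the kinase that starts mitosis, had 114, 116 and 117 FPKM in KO_let-7g, 88.3, 94.6 and 86.4 FPKM in KO_siNr6a1, 116, 117 and 104 FPKM in KO_siCtrl, and 127, 126 and 119 FPKM in WT_siCtrl. KO_siNr6a1 stood below each other group. Cdk1 fell by 0.32 on the log2 scale in KO_siNr6a1 against KO_siCtrl (adjusted p = 0.00499), while KO_let-7g gave 0.04 ± 0.07 against KO_siCtrl (0.637).

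Cdc25c, a further Cdk1 phosphatase, averaged 27.7 ± 0.552 FPKM in KO_let-7g, 17.4 ± 1.73 in KO_siNr6a1, 20.5 ± 0.911 in KO_siCtrl and 20.4 ± 0.7 in WT_siCtrl (SD, n = 3 each), and was called higher in KO_let-7g than in every other group. Ccnb1, the main mitotic cyclin, averaged 130 ± 8.51, 108 ± 2.5, 117 ± 6.41 and 100 ± 13.5 FPKM in the same order. Its rise of 0.27 in KO_let-7g against KO_siNr6a1 (limma adjusted p = 0.0438) was lost under 14 of 23 alternatives, 9 of them the removal of 1 library, and its 4 pseudogene copies, up to 99.2% identical, may share its reads. Ccna2, the cyclin of S phase and G2, averaged 186 ± 18.1, 187 ± 1.77, 223 ± 20.6 and 218 ± 19.3 FPKM. It fell by 0.26 in KO_let-7g against KO_siCtrl (adjusted p = 0.0451), with groups that overlapped and a call lost under 11 of 23 alternatives, at an adjusted p of up to 0.164. Of Ccna2 exon bases 12.5% lie opposite Exosc9 and of Cdc25c exon bases 12.7% opposite Gm3550, and the sources used here do not say whether counting used strand.

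Mitotic and checkpoint kinases were called in both directions. In KO_let-7g against KO_siCtrl 2 of 6 were higher and 2 lower, in KO_siNr6a1 against KO_siCtrl 1 was higher and 4 lower, and in KO_siCtrl against WT_siCtrl 5 were higher. Nek2, a kinase that parts the centrosomes, had 96.6, 89.8 and 94 FPKM in KO_let-7g, 36.2, 36.3 and 31 FPKM in KO_siNr6a1, 63.5, 59.5 and 62.5 FPKM in KO_siCtrl, and 43.1, 38.1 and 40.9 FPKM in WT_siCtrl. No group overlapped another, with KO_let-7g the highest and KO_siNr6a1 the lowest. The treatments moved Nek2 in opposite directions from KO_siCtrl, with a log2 fold change of 0.59 ± 0.08 in KO_let-7g (limma adjusted p = 0.000133) and -0.83 ± 0.08 in KO_siNr6a1 (5.22e-05). The direct difference between the treatments was 1.41 ± 0.08 (2.78e-06). Of Nek2 exon bases, 6.6% lie opposite the antisense gene Gm38037.

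Aurka, Aurora A kinase of the spindle poles, had 122, 110 and 130 FPKM in KO_let-7g, 98.7, 98.7 and 107 FPKM in KO_siNr6a1, 83.5, 71 and 85.8 FPKM in KO_siCtrl, and 52.1, 54.1 and 49.3 FPKM in WT_siCtrl. The order of groups was that of Cdc25b, again with no overlap. The log2 fold change was 0.59 ± 0.09 in KO_let-7g against KO_siCtrl (limma adjusted p = 0.000329) and 0.61 ± 0.09 in KO_siCtrl against WT_siCtrl (0.000146). In KO_siNr6a1 against KO_siCtrl it was 0.34 (0.0146), a call lost without KO_siCtrl replicate 1 or without KO_siNr6a1 replicate 2, at up to 0.0606. Its 0.25 in KO_let-7g against KO_siNr6a1 (0.0452) was lost under 14 of 23 alternatives, 8 of them the removal of 1 library.

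Plk1, Polo-like kinase 1 of mitotic entry and spindle assembly, ran the other way. It had 56.9, 53.5 and 58.8 FPKM in KO_let-7g, 67.8, 63.8 and 72.3 FPKM in KO_siNr6a1, 95.9, 83 and 106 FPKM in KO_siCtrl, and 65.8, 62.7 and 75.7 FPKM in WT_siCtrl. KO_siCtrl stood above each other group, and KO_siNr6a1 overlapped WT_siCtrl. Plk1 fell by 0.73 on the log2 scale in KO_let-7g (limma adjusted p = 0.000163) and by 0.47 in KO_siNr6a1 (0.00536) against KO_siCtrl, and KO_siCtrl was 0.47 above WT_siCtrl (0.00223). Bub1, a checkpoint kinase at the kinetochore, had 42.3, 40 and 36.5 FPKM in KO_let-7g, 43.8, 33.4 and 39.7 FPKM in KO_siNr6a1, 59.5, 62.1 and 50.4 FPKM in KO_siCtrl, and 43.9, 40.8 and 34.5 FPKM in WT_siCtrl. Here too KO_siCtrl stood alone, and the other 3 groups overlapped. Against KO_siCtrl, Bub1 fell by 0.52 with let-7g (adjusted p = 0.00521) and by 0.55 with the Nr6a1 siRNA (0.00678).

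Ttk, the Mps1 kinase of the spindle checkpoint, had 23.1, 22.6 and 21.6 FPKM in KO_let-7g, 20.3, 16.7 and 19.3 FPKM in KO_siNr6a1, 27.8, 25.7 and 24.4 FPKM in KO_siCtrl, and 33.1, 30.8 and 27.2 FPKM in WT_siCtrl. Levels were lowest in KO_siNr6a1, where Ttk fell by 0.45 against KO_siCtrl (limma adjusted p = 0.00479). KO_let-7g gave -0.2 ± 0.09 against KO_siCtrl, which did not pass the test (0.102). Bub1b, the checkpoint protein BubR1, had 90.4, 74.9 and 82.9 FPKM in KO_let-7g, 80, 62.8 and 72.9 FPKM in KO_siNr6a1, 88.6, 71.2 and 77.9 FPKM in KO_siCtrl, and 45.7, 41.3 and 43.1 FPKM in WT_siCtrl. The 3 Dicer -/- groups overlapped each other and all stood above WT_siCtrl, KO_siCtrl by 0.85 ± 0.11 on the log2 scale (6.46e-05).

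**Figure D4:**
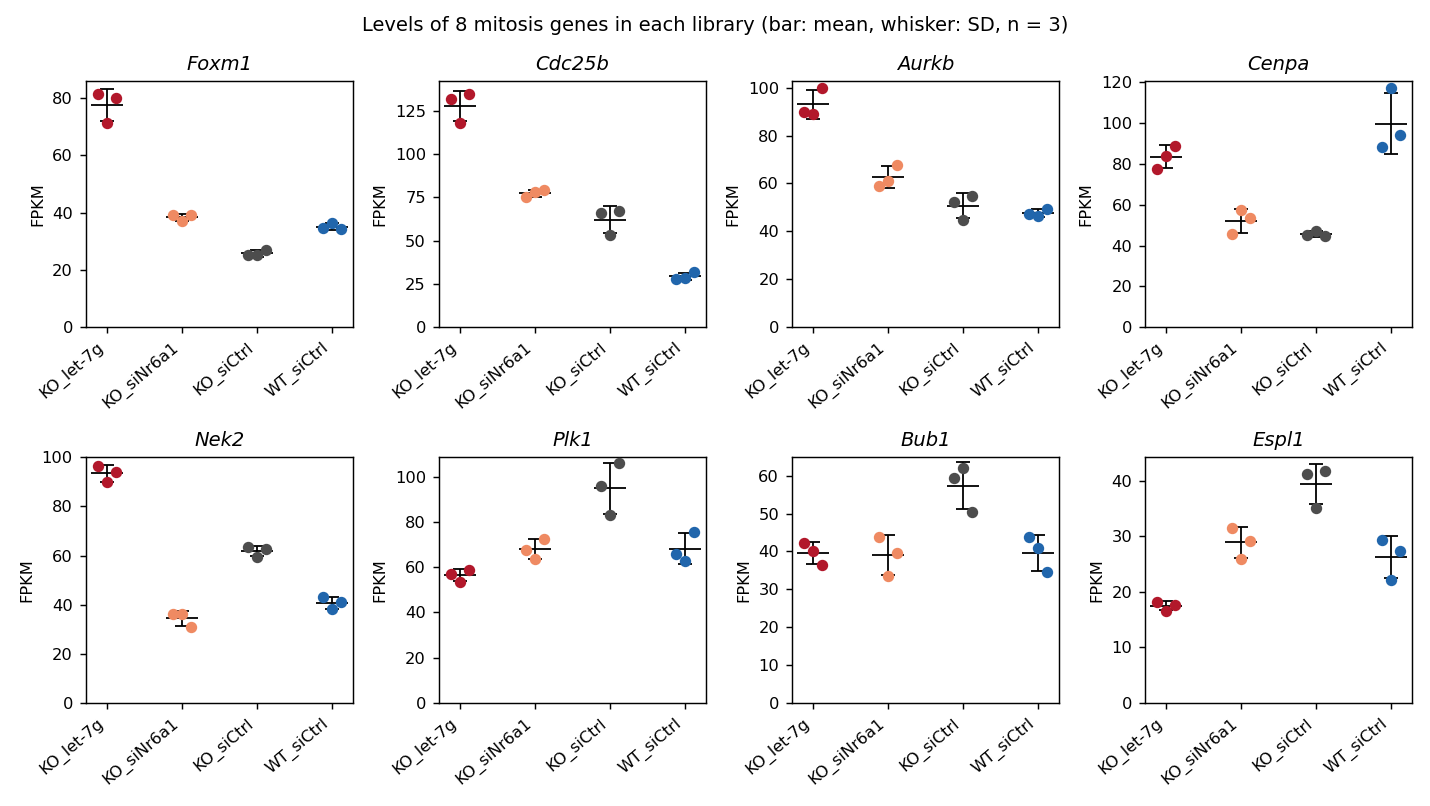
FPKM of 8 mitotic genes in each library (points), with the group mean (bar) and SD (whisker, n = 3), for KO_let-7g, KO_siNr6a1, KO_siCtrl and WT_siCtrl from left to right. Foxm1, Cdc25b, Aurkb and Nek2 are highest in KO_let-7g, Cenpa is low in KO_siNr6a1 and KO_siCtrl, and Plk1, Bub1 and Espl1 are highest in KO_siCtrl.

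The chromosomal passenger complex, which corrects faulty attachments of chromosomes to the spindle, moved unevenly: 2 of 4 subunits were higher in KO_let-7g than in KO_siCtrl. Aurkb, its kinase Aurora B, had 89.8, 89 and 100 FPKM in KO_let-7g, 59.1, 61.1 and 67.9 FPKM in KO_siNr6a1, 52.4, 44.9 and 54.8 FPKM in KO_siCtrl, and 47.2, 46.5 and 49.4 FPKM in WT_siCtrl. KO_let-7g stood apart from the rest, and KO_siCtrl overlapped WT_siCtrl. The log2 fold change in KO_let-7g was 0.86 ± 0.09 against KO_siCtrl (limma adjusted p = 2.51e-05). In KO_siNr6a1 it was 0.3 (0.0243), a call lost without KO_siCtrl replicate 1, KO_siNr6a1 replicate 1 or KO_siNr6a1 replicate 2 and with only the compared groups, at up to 0.101.

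Cdca8, the subunit borealin, had 107, 105 and 124 FPKM in KO_let-7g, 75, 72.8 and 79.9 FPKM in KO_siNr6a1, 95.1, 92.9 and 106 FPKM in KO_siCtrl, and 108, 111 and 126 FPKM in WT_siCtrl. KO_siNr6a1 alone stood apart, below the others, and fell by 0.37 against KO_siCtrl (limma adjusted p = 0.0112). Incenp, the scaffold, averaged 84.5 ± 2.1 FPKM in KO_let-7g, 65 ± 4.45 in KO_siNr6a1, 73 ± 5.06 in KO_siCtrl and 86.1 ± 4.01 in WT_siCtrl. Its rise of 0.21 in KO_let-7g against KO_siCtrl (0.0408) was lost under 12 of 23 alternatives, 7 of them the removal of 1 library, at up to 0.207. Birc5, the subunit survivin, averaged 144 ± 15.1, 131 ± 1.89, 152 ± 7.08 and 160 ± 1.44 FPKM, and its changes against KO_siCtrl of -0.09 ± 0.08 with let-7g (adjusted p = 0.396) and -0.21 ± 0.08 with the Nr6a1 siRNA (0.0598) did not pass the test.

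At the centromere and kinetochore, 4 of 6 genes were higher in KO_let-7g than in KO_siCtrl, and 2 of 6 were lower in KO_siNr6a1. Cenpa, the histone H3 variant that marks centromeres, had 77.7, 84.1 and 88.9 FPKM in KO_let-7g, 45.5, 57.4 and 53.3 FPKM in KO_siNr6a1, 45, 47.3 and 44.5 FPKM in KO_siCtrl, and 88.5, 117 and 94.1 FPKM in WT_siCtrl. KO_let-7g overlapped WT_siCtrl, and KO_siNr6a1 overlapped KO_siCtrl, both far below. Cenpa fell by 1.1 on the log2 scale in KO_siCtrl against WT_siCtrl (limma adjusted p = 1.16e-05) and was 0.86 ± 0.11 higher in KO_let-7g than in KO_siCtrl (0.000122). Ccnb2 and Cenpa were thus both lower in KO_siCtrl than in WT_siCtrl and higher in KO_let-7g than in KO_siCtrl.

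Ndc80 and Nuf2 form a dimer in the complex that grips microtubules. Ndc80 had 64.7, 65.9 and 63 FPKM in KO_let-7g, 41.2, 36.5 and 40.1 FPKM in KO_siNr6a1, 56.3, 48.4 and 48.5 FPKM in KO_siCtrl, and 42.7, 42.7 and 37.5 FPKM in WT_siCtrl. Like Nek2, it was called in opposite directions from KO_siCtrl, with 0.33 ± 0.08 in KO_let-7g (limma adjusted p = 0.00696) and -0.37 ± 0.08 in KO_siNr6a1 (0.00698), and the direct difference was 0.7 ± 0.08 (0.000105). Nuf2 had 72, 75.2 and 68.3 FPKM in KO_let-7g, 49.3, 46.9 and 49.6 FPKM in KO_siNr6a1, 45.6, 49.2 and 38.8 FPKM in KO_siCtrl, and 49.7, 55.2 and 45.2 FPKM in WT_siCtrl. KO_let-7g alone stood apart, 0.68 ± 0.1 above KO_siCtrl (0.000214). The partners thus differed after Nr6a1 knockdown, where Nuf2 was not called, but the difference between the partners was not tested, and Ndc80 has 2 pseudogene copies with stretches over 95% identical.

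Cenpf, a large kinetochore protein of G2 and mitosis, averaged 26 ± 3.71 FPKM in KO_let-7g, 10.4 ± 2.31 in KO_siNr6a1, 12.2 ± 2.21 in KO_siCtrl and 11.9 ± 3.64 in WT_siCtrl (SD, n = 3 each). Its log2 fold change of 1.04 ± 0.21 in KO_let-7g against KO_siCtrl (limma adjusted p = 0.00199) carried an SE larger than that of most members. Mad2l1, the checkpoint protein Mad2, averaged 98.6 ± 1.34, 59.9 ± 3.34, 80.2 ± 11.3 and 95.2 ± 15.1 FPKM. It fell by 0.41 in KO_siNr6a1 against KO_siCtrl (0.0285), a call lost under 7 of 23 alternatives, 4 of them the removal of KO_siCtrl replicate 0 or 1 or of KO_siNr6a1 replicate 1 or 2, at up to 0.106. Cenpe, a kinetochore motor, averaged 27.2 ± 4.79, 23.9 ± 5.09, 28 ± 4.56 and 24.8 ± 5.37 FPKM and was the 1 member called in none of the 6 comparisons.

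Of the spindle motors and microtubule binders, 2 of 5 were higher in KO_let-7g than in KO_siCtrl and 5 of 5 were higher than in KO_siNr6a1. Tpx2, the activator of Aurora A on spindle microtubules, had 124, 108 and 112 FPKM in KO_let-7g, 81.6, 66 and 75.3 FPKM in KO_siNr6a1, 82.4, 74.4 and 72.2 FPKM in KO_siCtrl, and 69.2, 63.8 and 60.6 FPKM in WT_siCtrl. KO_let-7g stood above the rest, 0.58 ± 0.09 above KO_siCtrl (limma adjusted p = 0.000495), and KO_siNr6a1 overlapped KO_siCtrl. Hmmr, a spindle protein that also binds hyaluronan, had 57, 61.1 and 53.7 FPKM in KO_let-7g, 36.4, 30.6 and 34.9 FPKM in KO_siNr6a1, 53.8, 52.8 and 45.3 FPKM in KO_siCtrl, and 44.6, 42.8 and 37.2 FPKM in WT_siCtrl. KO_siNr6a1 was the lowest group and WT_siCtrl the next, each without overlap, while KO_let-7g overlapped KO_siCtrl. Hmmr fell by 0.56 in KO_siNr6a1 against KO_siCtrl (0.00188), and 0.18 ± 0.1 in KO_let-7g did not pass the test (0.174).

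Kif2c, the kinesin that takes microtubules apart at kinetochores, averaged 43.9 ± 4.35 FPKM in KO_let-7g, 28.7 ± 2.39 in KO_siNr6a1, 27.7 ± 2.97 in KO_siCtrl and 39.8 ± 1.87 in WT_siCtrl (SD, n = 3 each). It was lower in KO_siCtrl than in WT_siCtrl by 0.51 on the log2 scale and higher in KO_let-7g than in KO_siCtrl by 0.65, the pattern seen for Cenpa and Ccnb2. Kif11, the motor that pushes spindle poles apart, averaged 73.9 ± 9.44, 55.6 ± 3.61, 65 ± 6.57 and 74.4 ± 8.97 FPKM. Its changes against KO_siCtrl, 0.18 ± 0.12 in KO_let-7g (limma adjusted p = 0.245) and -0.22 ± 0.12 in KO_siNr6a1 (0.191), did not pass the test. Its 0.4 in KO_let-7g against KO_siNr6a1 (0.0201) was lost under 7 of 23 alternatives, at up to 0.134: all 3 scalings and the removal of KO_let-7g replicate 0 or 1 or of KO_siNr6a1 replicate 1 or 2. Prc1, which bundles midzone microtubules, averaged 137 ± 12.9, 90.2 ± 11.3, 114 ± 12 and 95 ± 11.7 FPKM and was called higher in KO_let-7g than in KO_siNr6a1 and in WT_siCtrl, with 11.1% of its exon bases opposite Rccd1.

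Of the cytokinesis genes, 5 of 5 were called higher in KO_let-7g than in KO_siNr6a1, by 0.27 to 0.84 on the log2 scale, with the calls of Racgap1 and Ect2 lost under some alternatives. Anln, the actin-binding scaffold anillin of the cleavage furrow, had 84.7, 73.9 and 71.2 FPKM in KO_let-7g, 48.3, 36.4 and 43 FPKM in KO_siNr6a1, 67.9, 63 and 57.3 FPKM in KO_siCtrl, and 124, 102 and 94.3 FPKM in WT_siCtrl. No group overlapped another. WT_siCtrl was the highest, with KO_siCtrl 0.75 below it (limma adjusted p = 0.000451) and KO_siNr6a1 1.31 below (7.46e-06), the largest fall of the 39 genes against WT_siCtrl. Racgap1, a subunit of the centralspindlin complex, had 173, 159 and 155 FPKM in KO_let-7g, 140, 124 and 139 FPKM in KO_siNr6a1, 130, 122 and 126 FPKM in KO_siCtrl, and 108, 101 and 101 FPKM in WT_siCtrl. Each Dicer -/- group stood above WT_siCtrl, KO_siCtrl by 0.28 ± 0.07 (0.00588) and KO_let-7g by 0.64 ± 0.07 (2.07e-05). Its 0.27 in KO_let-7g against KO_siNr6a1 (0.0112) was lost without KO_let-7g replicate 0 (0.052) and under the median of ratios, where it was 0.13 (0.219).

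Kif23, the kinesin of centralspindlin, averaged 49.5 ± 5.05 FPKM in KO_let-7g, 29.1 ± 4.51 in KO_siNr6a1, 33 ± 4.15 in KO_siCtrl and 43.7 ± 5.55 in WT_siCtrl (SD, n = 3 each), so its group means did not follow those of its partner Racgap1. Ect2, the exchange factor that switches on RhoA at the furrow, averaged 73.1 ± 6.87, 54.8 ± 8.47, 79.3 ± 6.93 and 60.3 ± 9.44 FPKM, and fell by 0.54 in KO_siNr6a1 against KO_siCtrl (limma adjusted p = 0.0131). Its 0.42 in KO_let-7g against KO_siNr6a1 (0.03) was lost under 7 of 23 alternatives, at up to 0.157, among them all 3 scalings and the removal of KO_let-7g replicate 0 or 1 or of KO_siNr6a1 replicate 1. Kif20a, a motor of the central spindle, averaged 112 ± 1.4, 83 ± 5.62, 98.7 ± 6.7 and 79.8 ± 4.18 FPKM. Its fall of 0.25 in KO_siNr6a1 against KO_siCtrl (0.0296) was lost under 8 of 23 alternatives, 4 of them the removal of 1 library, at up to 0.112, and 29.3% of its exon bases lie opposite Cdc23.

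The genes that end mitosis diverged. Cdc20, which switches on the anaphase-promoting complex, averaged 134 ± 14.1 FPKM in KO_let-7g, 93.5 ± 4.42 in KO_siNr6a1, 89.6 ± 9.78 in KO_siCtrl and 104 ± 7.4 in WT_siCtrl (SD, n = 3 each). Ube2c, the ubiquitin-conjugating enzyme of that complex, averaged 300 ± 41.5, 200 ± 21, 204 ± 26.4 and 173 ± 17.3 FPKM, and Pttg1, securin, averaged 172 ± 2.92, 128 ± 13, 129 ± 4.69 and 131 ± 10 FPKM. All 3 were higher in KO_let-7g than in each other group, by 0.58, 0.55 and 0.42 on the log2 scale against KO_siCtrl (limma adjusted p = 0.000825, 0.00534 and 0.00189). The 0.37 of Cdc20 against WT_siCtrl (0.00879) was lost under the median of ratios, where it was 0.23 (0.0687). Of Ube2c exon bases, 22.8% lie opposite Tnnc2.

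Espl1, separase, the protease that securin holds back and that cuts cohesin at anaphase, was lower in KO_let-7g, where securin was higher. It had 18.2, 16.6 and 17.7 FPKM in KO_let-7g, 31.5, 25.9 and 29.2 FPKM in KO_siNr6a1, 41.3, 35.2 and 41.7 FPKM in KO_siCtrl, and 29.4, 22.1 and 27.3 FPKM in WT_siCtrl. KO_let-7g was the lowest group and KO_siCtrl the highest, and KO_siNr6a1 overlapped WT_siCtrl. Espl1 fell by 1.12 on the log2 scale in KO_let-7g against KO_siCtrl (limma adjusted p = 2.44e-05) and by 0.69 against KO_siNr6a1 (0.000834), and KO_siCtrl was 0.57 above WT_siCtrl (0.00144). Its fall of 0.44 in KO_siNr6a1 (0.0149) was lost without KO_siCtrl replicate 0, KO_siCtrl replicate 2 or KO_siNr6a1 replicate 1, at up to 0.0612. Espl1 has a CTACCTC site in its 3′ untranslated region and a CHR word in its promoter, both shown above. Kif11 has both kinds of word too and was not called in KO_let-7g against KO_siCtrl. The part of these words in the changes was not tested.

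Top2a and Mki67 are the usual proliferation markers, a topoisomerase that untangles sister chromatids and the Ki-67 protein that coats mitotic chromosomes. Top2a averaged 277 ± 39.5 FPKM in KO_let-7g, 179 ± 28 in KO_siNr6a1, 242 ± 35.2 in KO_siCtrl and 192 ± 41.4 in WT_siCtrl (SD, n = 3 each). Mki67 averaged 70.9 ± 12.8, 37.9 ± 10.1, 50.2 ± 9.09 and 49.3 ± 12.2 FPKM in the same order. Neither was called against KO_siCtrl in KO_let-7g, where the log2 fold changes were 0.2 ± 0.17 (limma adjusted p = 0.37) and 0.49 ± 0.22 (0.0878), or in KO_siNr6a1, where they were -0.43 ± 0.17 (0.0814) and -0.41 ± 0.22 (0.179). Against the KO_siCtrl library of the same number, both genes were higher in 3 of 3 KO_let-7g libraries and lower in 3 of 3 KO_siNr6a1 libraries. With the replicate number as a block these values passed the test, at adjusted p = 0.0276 for Top2a and 0.00116 for Mki67 in KO_let-7g, and 0.000864 and 0.00472 in KO_siNr6a1. With library weights both passed in KO_siNr6a1 (0.00383 and 0.00909), and Mki67 passed in KO_let-7g (0.0448). Both were higher in KO_let-7g than in KO_siNr6a1, by 0.63 (0.0128) and 0.9 (0.00695), and the call of Top2a was lost without KO_let-7g replicate 0, without KO_siNr6a1 replicate 1 and under the median of ratios, at up to 0.0551.

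Sorted by their calls in the treatments against KO_siCtrl, the 39 genes fell into 7 patterns. Foxm1, Aurka, Aurkb and Cdc25b were higher in both treatments, and Plk1, Bub1 and Espl1 were lower in both. Nek2 and Ndc80 were higher after let-7g and lower after Nr6a1 knockdown. A further 13 were called higher in KO_let-7g and not called in KO_siNr6a1, 8 were called lower in KO_siNr6a1 and not called in KO_let-7g, Ccna2 was called lower in KO_let-7g alone, and 8 were called in neither. Both comparisons share the KO_siCtrl libraries and the patterns were not counted over all genes tested, so they are a description. Aurka, Cdc25b and Nek2 were called in all 6 comparisons, a count not made for all genes tested. Each of them had a call lost under some of the 23 alternatives. The call lost most often was KO_let-7g against KO_siNr6a1 for Aurka (14 alternatives) and KO_siNr6a1 against KO_siCtrl for Cdc25b (4). For Nek2 it was KO_siNr6a1 against WT_siCtrl (-0.23, limma adjusted p = 0.0255), lost under 4.

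Other genes of the same pathways, outside the 39, gave like counts in KO_let-7g against KO_siCtrl for the machinery of mitosis. Of 26 further kinetochore and checkpoint genes, 15 were higher and 1 lower, of 21 spindle and cytokinesis genes 11 and 1, and of 20 genes of the anaphase-promoting complex and mitotic entry 10 and 1. The shares called higher were 57.7%, 52.4% and 50%, beside 27.5% of all genes tested. Median log2 fold changes of these lists were 0.33, 0.31 and 0.41, beside 0.08. Kif18b, a microtubule-depolymerizing kinesin, was 1.35 ± 0.08 higher (limma adjusted p = 1.34e-06), Cenpq, an inner kinetochore subunit, 1.28 ± 0.15 (5.97e-05), and Fbxo5, the inhibitor Emi1 of the anaphase-promoting complex, 0.64 ± 0.08 (6.39e-05). Of 18 condensin and cohesin genes 5 were higher (27.8%) and 1 lower, and of 19 DREAM and MuvB genes 6 were higher (31.6%) and 5 lower, shares of higher calls near the 27.5% of all genes tested. Repressor genes of the DREAM and MuvB list were called in both directions. E2f7 and Rbl1 (p107) were higher by 0.96 ± 0.1 (limma adjusted p = 2.89e-05) and 0.79 ± 0.1 (0.000105). E2f4, E2f5, E2f6 and E2f8, named after their values were seen, fell by 0.56, 0.83, 0.48 and 0.55 (0.00362, 0.000544, 0.000461 and 0.000534). After Nr6a1 knockdown the lists of mitotic machinery did not share the direction of the 39. Against KO_siCtrl, 2 kinetochore and checkpoint genes were higher and 6 lower (7.69% and 23.1%). Of the spindle and cytokinesis genes 4 were higher and 1 lower (19% and 4.76%). Of the anaphase-promoting complex and mitotic entry genes 3 were higher and 5 lower (15% and 25%). The shares of all genes tested were 13.2% and 16.3%.

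DNA replication genes, a class of the preceding cell cycle phase, are set beside the 39 here. In KO_let-7g against KO_siCtrl 18 of 38 were higher and 3 lower (47.4% and 7.89%), beside 19 and 4 of the 39 and 27.5% and 18.2% of all genes tested. In KO_siNr6a1 against KO_siCtrl 5 were higher and 4 lower, beside 4 and 13 of the 39 and 13.2% and 16.3% of all genes tested. The 5 higher made up 13.2% of the replication list, the same share as in all genes tested. In KO_let-7g against KO_siNr6a1 18 were higher (47.4%) and 2 lower, beside 31 and 1 of the 39. There the shares of all genes tested were 27.6% and 13.3%. Whether the lists differ was not tested. Pola2, a subunit of the polymerase that lays down primers, was 0.75 lower in KO_siCtrl than in WT_siCtrl (limma adjusted p = 1.19e-05) and 0.76 higher in KO_let-7g than in KO_siCtrl (2.37e-05). In KO_siCtrl against WT_siCtrl, Spc24, a partner of Ndc80 and Nuf2, fell by 1.07 (1.01e-05) and Anapc13, a small subunit of the anaphase-promoting complex, by 1.05 (8.2e-06).

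**Figure D5:**
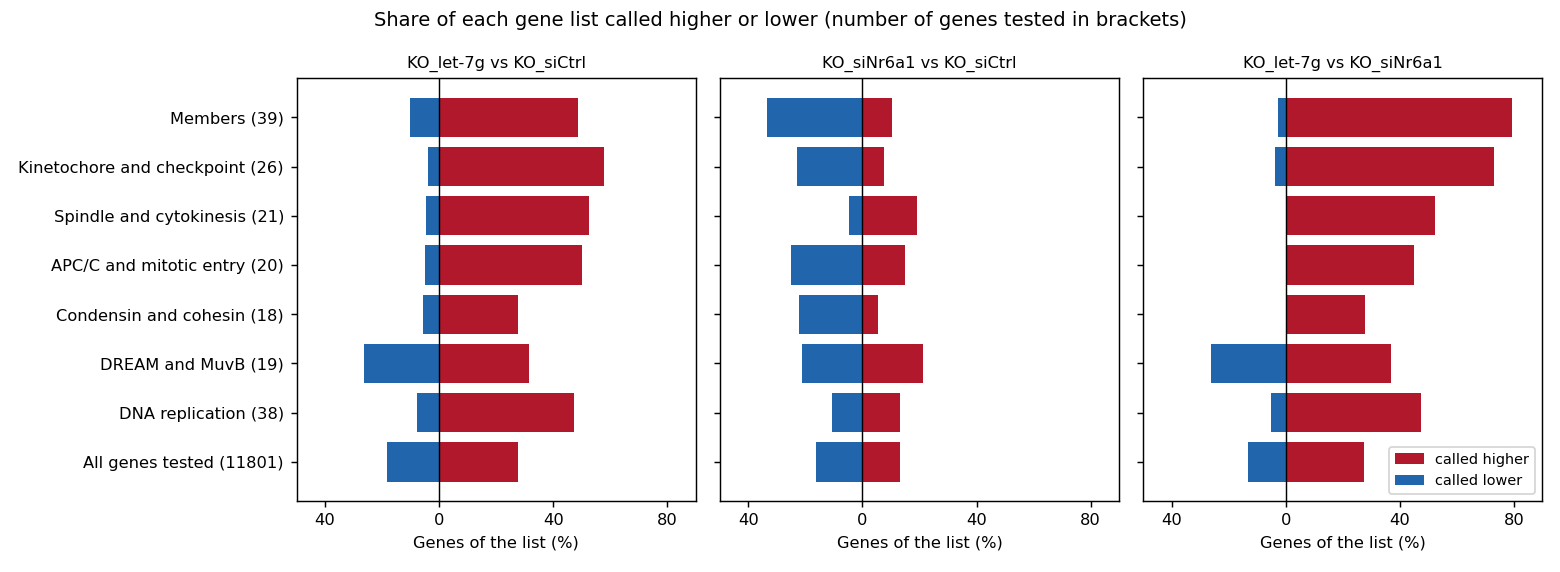
Percent of each gene list called higher (red, to the right) or lower (blue, to the left) in KO_let-7g against KO_siCtrl, KO_siNr6a1 against KO_siCtrl and KO_let-7g against KO_siNr6a1, where Members are the 39 genes and the number of genes tested is in brackets. The 39 reach 48.7%, 10.3% and 79.5% higher, beside 27.5%, 13.2% and 27.6% for all genes tested.

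Most of the 39 varied together across the 12 libraries when differences between the groups were included. On the log2 scale, the correlation of a gene with the mean of the other 38 over the 12 libraries was above 0.5 for 25 genes and reached 0.95 for Cdc25c, and it was below 0 for Espl1 (-0.6), Plk1 (-0.42) and Ccna2 (-0.18). With Foxm1 the correlation was 0.91 for Aurkb and Nuf2 and -0.92 for Espl1. These values describe 12 libraries that share 4 groups and the scaling of FPKM, and no such count was made for all genes tested. With the group means removed, the correlation with the other 38 had both signs. It reached 0.98 for Tpx2 and 0.97 for Kif23 and Prc1, and fell to -0.82 for Ube2c, -0.69 for Pttg1 and -0.65 for Cenpa. For Foxm1 it was 0.21 and for Aurkb -0.09. The replicate number also moved with the class: replicate 0 was the highest library in all 4 groups for 15 of the 39 genes (38.5%), among them Top2a, Mki67, Cenpf and Kif23, against 11.2% of all genes tested. Replicate 2 was highest in all 4 for 5 genes (12.8%, against 7.8%), which were Aurkb, Plk1, Cdc20, Cdc25b and Cdca8, and replicate 1 for 0. The sources used here do not say what the number stands for.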

How the data were processed

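Polyadenylated RNA from 12 libraries was analysed from 1 table of FPKM values, which the authors deposited. TopHat 1.2.0, Cufflinks 1.0.3 and build mm9 are named in the submitters' processing notes. The sources used here give no settings or read counts. Since FPKM values are relative within a library, abundant genes that change move all others. Relative depth was read from the values that 1 read gives, at FPKM under 0.3.

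The 11801 genes that reached 1 FPKM in 3 or more libraries entered limma 3.58.1 in R 4.3.3 on the log2(FPKM + 1) scale, with 1 coefficient per group, 8 residual degrees of freedom, a trend of variance on mean, two-sided tests and Benjamini-Hochberg adjustment over all genes, called under 0.05. A pseudocount of 1 understates changes of low genes. The scripts were run on simulated data with independent noise in each library. That simulation held no effect shared by a replicate number or by a whole library, so it says nothing about calls under such effects. Values in every library were given for Foxm1 and for the 8 members with the smallest adjusted p in each comparison with a control group, and means for the rest. Each other list is named by genes among the 3 of smallest adjusted p in KO_let-7g against KO_siCtrl and in KO_siCtrl against WT_siCtrl. E2f4, E2f5, E2f6 and E2f8 in KO_let-7g against KO_siCtrl are outside this rule and were added after their values were seen. The members and lists were chosen with earlier results of these data known. Alternatives were pseudocounts of 0.1 and 0.5, 2 other filters, 3 scalings, no trend, library weights, only the compared groups, the replicate block, and each library left out. Promoters and the microRNA came from RefSeq (GRCm38.p6) and untranslated regions, gene overlaps and copies from GENCODE M21; mm9 coordinates are not used here.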

Additional observations from a re-analysis of the deposited data

Results flagged for a closer look

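Nek2 and Ndc80 were flagged because the treatments of Dicer-null cells called them in opposite directions and KO_let-7g against KO_siNr6a1 called them too. The values below are those that picked these genes, so they describe the choice and add no further test. For Nek2 the log2 fold change between the treatments was 1.41 ± 0.08 (limma adjusted p = 2.78e-06), with 3 of 3 KO_let-7g libraries above and 3 of 3 KO_siNr6a1 libraries below all KO_siCtrl libraries. For Ndc80 it was 0.7 ± 0.08 (0.000105), again with no overlap of the 3 groups. Both calls held under all 23 alternatives.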

How the results depend on the processing

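Under 23 alternatives, 0 called genes changed sign. Calls held under every alternative for 15 of 19 genes in KO_siCtrl against WT_siCtrl, 21 of 23 in KO_let-7g and 11 of 17 in KO_siNr6a1 against KO_siCtrl, 26 of 32 in KO_let-7g against KO_siNr6a1, and 20 of 24 and 17 of 20 for these treatments against WT_siCtrl. The number lower in KO_siCtrl against WT_siCtrl was 7, and 11 with upper quartile or with median of ratios scaling. The number lower in KO_siNr6a1 against KO_siCtrl was 13, and 22 with library weights. In KO_let-7g against KO_siNr6a1, 1 was lower, and 2 under each scaling, with library weights, with only the compared groups and with the replicate block. In KO_let-7g against WT_siCtrl, 4 were lower, 9 with upper quartile or with median of ratios scaling and 7 with library weights. With 1 library left out, the number higher in KO_siNr6a1 against KO_siCtrl was 1 to 4, and the number lower in KO_let-7g against KO_siNr6a1 was 1 to 2.

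Uncalled values were recomputed only for some genes, and among those 4 genes changed sign. Nr6a1 in KO_let-7g against KO_siNr6a1 was 0.14, with -0.03 after quantile scaling and a range of -0.01 to 0.26 with 1 library left out, lowest without KO_let-7g replicate 1. Under the median of ratios, Bub1b and Cdk1 in KO_let-7g against KO_siCtrl were -0.02 and -0.04, and Birc5 in KO_let-7g against KO_siNr6a1 was -0.01. With 1 library left out, Bub1b ran from -0.01 (without KO_siCtrl replicate 1) to 0.15, and Cdk1 from -0.01 (without KO_siCtrl replicate 2) to 0.07. The cause was not tested.

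Libraries of the same number deviated together with correlations of 0.092 to 0.465 over 18 pairs, with 1 pair, in KO_siNr6a1 against WT_siCtrl, under the limit of 0.1. Every pair was over it in the other 5 of 6 comparisons, and each of the 12 libraries correlated best with its own number, a hint from the data and not from the design, so the libraries were taken to share only a number. With the replicate number as a block, 29 of the 39 were called in KO_siCtrl against WT_siCtrl (19 without the block), 31 in KO_let-7g (23) and 25 in KO_siNr6a1 (17) against KO_siCtrl, 35 in KO_let-7g against KO_siNr6a1 (32), and 30 (24) and 24 (20) for these treatments against WT_siCtrl, with 12 lower in KO_siCtrl against WT_siCtrl and 21 lower in KO_siNr6a1 against KO_siCtrl. Calls over all genes rose too: in KO_siCtrl against WT_siCtrl to 65.1% of genes with the block, against 54.3% without it, beside 74.4% and 48.7% of the 39. In KO_let-7g against KO_siCtrl these shares were 58.3% and 45.6% of all genes, beside 79.5% and 59% of the 39, and in KO_siNr6a1 against KO_siCtrl 44.5% and 29.4%, beside 64.1% and 43.6%. KO_let-7g against KO_siNr6a1 gave 54.7% and 40.9%, beside 89.7% and 82.1%. KO_let-7g against WT_siCtrl gave 68.6% and 58.2%, beside 76.9% and 61.5%. KO_siNr6a1 against WT_siCtrl gave 65.9% and 54.3%, beside 61.5% and 51.3%, so there the 39 were called less often than all genes. Depth per library is known only in relative terms, so no counting interval could be given. The filter of a mean FPKM of at least 5 gave no value for Dicer1, which it removes.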
